A study of Mus musculus with 2 samples.

Results

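The genes described here are those of the MHC class II pathway in mouse bone marrow cultures, 8 genes in all: H2-Aa, H2-Ab1, H2-Eb1, H2-DMa, H2-DMb1, H2-DMb2, Cd74 and Ciita. They were taken as a named list and not by a ranking of their levels, but with earlier results of these data known. All 8 were found among the 26124 genes of both count matrices. The cultures started from lineage-negative progenitors of C57BL/6 mice aged 8 to 10 weeks and received GM-CSF at 20 ng/ml, under which dendritic cells, macrophages and granulocytes form. On day 3 they were given heme-albumin at 300 µM or, as the control, albumin without heme. Each condition was 1 single-cell library of 3′ transcript ends counted through unique molecular identifiers (UMIs), and each library pooled 5 cultures carrying antibody hashtags for culture days 0, 3, 4, 5 and 7. The cultures of days 0 and 3 had received neither addition, so they give each library's background. They were pooled with the treated cultures of the same library, and a carry-over of transcripts or hashtags from these was not tested. The design text counts exposures of 0, 24, 72 and 96 h, which cannot all be matched to the labelled harvest days, so culture days are used. The mice per pool are not given, and neither condition has a replicate library.

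MHC class II molecules are pairs of an alpha and a beta chain that carry peptides from ingested proteins to the cell surface, where CD4+ T cells read them. In C57BL/6 mice the surface molecule is I-A, made of H2-Aa and H2-Ab1, whereas H2-Eb1 encodes a beta chain whose alpha partner is not made in this strain. Cd74, the invariant chain, guards the groove of new molecules, and the H2-DM pair of an alpha (H2-DMa) and a beta chain (H2-DMb1 or H2-DMb2) exchanges its remnant for peptide. Ciita is the co-activator that drives these genes: it binds no DNA itself and works through factors that sit on the X and Y boxes of their promoters. High class II is characteristic of dendritic cells, while neutrophils and early progenitors carry little.

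Cells with a single hashtag numbered 12050 of 13961 barcodes in the control library and 14164 of 17378 in the heme library. They were split by the transcripts they held. Cells with 2 or more UMIs of Ccr7, the chemokine receptor of migrating mature dendritic cells, are called Ccr7-positive. Those with 2 or more UMIs of C1qb, a complement chain made by macrophages, are called C1qb-positive. Cells with 3% or more of their UMIs from S100a8, a calcium-binding protein of neutrophils and their precursors, are called S100a8-high, and the remainder are the other cells. A cell that met several rules was placed in the first of these groups, which concerned 75 control and 14 heme cells with both Ccr7 and C1qb. Control and heme cells numbered 868 and 336 in the Ccr7-positive group, 1115 and 231 in the C1qb-positive group, 3703 and 5307 in the S100a8-high group, and 6364 and 8290 in the other group.

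The control cultures held 19140367 to 41970208 gene UMIs each and the heme cultures 25004562 to 75505515. Levels are given as CPM, the UMIs of a gene scaled to the same total of gene UMIs in every group of cells, and brackets give 95% intervals, which cover counting error only. With 1 library per condition the differences have no replicate check and no p-value is given. The median depth per cell was higher in the heme library on days 0, 3, 5 and 7 (9771 to 19696 UMIs per culture against 8850 to 15424) and lower on day 4 (10850 against 11849.5), and 112 barcodes occurred in both libraries. Cells above 5000 detected genes made up 16.4% to 33.9% of the heme cultures of days 3 to 7 and 4.82% to 8.34% of the control cultures. With these cells left out, the day 7 log2 ratios of the summed class II level within cell groups were -0.35 in Ccr7-positive, -0.71 in C1qb-positive, -1.69 in other and -0.42 in S100a8-high cells, beside -0.31, -0.38, -1.21 and -0.81 with them. The median log2 ratio of heme to control over all genes was already 0.38 on day 3 and stood at 0.30 on day 7. A ratio of a class II gene is therefore lower relative to the median gene than its own value states.

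The names of the cell groups were set against lists of marker genes, each of which includes the gene that chose the cells. On day 7, 5 genes of mature dendritic cells (Ccr7, Fscn1, Ccl22, Il4i1, Cd83) together reached 4846 CPM in control and 4432 CPM in heme Ccr7-positive cells, against 251 and 127 CPM in C1qb-positive cells. A list of 6 macrophage genes reached 1322 and 962 CPM in C1qb-positive cells, and C1qa, the partner chain of C1qb, stood at 164 CPM in control but 44.4 CPM in heme cells of that group. A list of 7 conventional dendritic cell genes summed in the same cells to 1538 CPM in control, above the macrophage list, and to 486 CPM in heme, so this group held transcripts of both lists, and the part of that difference in the class II levels was not tested. The 6 neutrophil genes reached 198504 and 157102 CPM in S100a8-high cells. In Ccr7-positive cells the neutrophil list summed to 1131 CPM in control and 3390 CPM in heme, and the macrophage list to 143 and 223 CPM. The conventional dendritic cell list summed there to 301 and 186 CPM. The part of these differences in the ratios within the Ccr7-positive group was not tested. Siglech, a marker of plasmacytoid dendritic cells, which also carry class II, had no UMI on day 7 in the cells of either library that took 1% or more of their UMIs from class II genes. With Ccr9 and Cox6a2, the other markers listed for that cell type, the list summed to 26 UMIs in the control and 16 UMIs in the heme cells, 1.08 and 1.90 CPM.

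Of the 8 genes, 6 lie in a run on chromosome 17 (GRCm38, annotation GENCODE M21). H2-DMa (chr17:34119541-34139101), H2-DMb2 (chr17:34143307-34151555), H2-DMb1 (chr17:34153072-34160230), H2-Ab1 (chr17:34257689-34269419) and H2-Eb1 (chr17:34305867-34316674) are on the plus strand, and H2-Aa (chr17:34282744-34287823) is on the minus strand. Ciita lies at chr16:10480059-10528418 on the plus strand. H2-DMb1 and H2-DMb2 are neighbouring copies whose transcripts were 94.6% identical over 1219 aligned bases, with an identical run of 221 bases. Their last 400 bases, where a 3′ library reads, were 70.1% identical with no shared run above 23 bases. The reads were not examined, so counts of this pair are given as uncertain to that extent.

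The promoters of 5 members were found in RefSeq (GRCm38.p6). Those of H2-Aa, H2-DMb1, H2-DMb2 and H2-Eb1 are shown. Within the bases printed, each of these holds a match to at least 1 of the boxes through which Ciita acts, in H2-Aa the Y box only. H2-Eb2, a class II gene outside the list, is added for comparison. Each line is the strand of the gene, 5′ to 3′, from 140 to 21 bases before the annotated start. Capitals mark matches to the X box pattern (in H2-DMb2 only its core, AACNGATG) and to the Y box pattern, ATTGG, or its reverse complement.
H2-Aa (chr17:34287844-34287963, minus strand): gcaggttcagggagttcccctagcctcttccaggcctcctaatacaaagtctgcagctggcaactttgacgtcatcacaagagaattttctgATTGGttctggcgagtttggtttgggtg
H2-DMb1 (chr17:34153051-34153170, plus strand): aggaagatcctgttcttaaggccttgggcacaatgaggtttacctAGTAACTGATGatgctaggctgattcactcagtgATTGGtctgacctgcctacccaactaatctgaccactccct
H2-DMb2 (chr17:34145109-34145228, plus strand): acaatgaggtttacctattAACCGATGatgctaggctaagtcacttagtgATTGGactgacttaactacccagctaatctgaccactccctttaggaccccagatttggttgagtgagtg
H2-Eb1 (chr17:34305727-34305846, plus strand): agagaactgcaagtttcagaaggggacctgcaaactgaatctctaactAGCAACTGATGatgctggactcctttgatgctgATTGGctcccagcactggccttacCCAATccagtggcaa
H2-Eb2 (chr17:34325535-34325654, plus strand): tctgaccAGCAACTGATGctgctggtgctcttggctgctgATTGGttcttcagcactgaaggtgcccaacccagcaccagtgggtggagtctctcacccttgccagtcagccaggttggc

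In H2-DMb1 and H2-DMb2 the X box core was followed by ATTGG after 23 bases, and in H2-Eb1 and H2-Eb2 after 22 bases. Searched on both strands, the X box pattern occurred in 3.09% of 32851 promoters of 300 bases, ATTGG in 37.4% and both in 1.42%. The core followed by ATTGG after 5 to 45 bases, an arrangement chosen after the sequences had been seen, occurred in 10 promoters (0.0304%), of which 4 belong to the class II genes just named. H2-Aa held ATTGG 48 bases before its start and no match to the X pattern in this window. Of the 2 promoters listed for H2-DMa, 1 held ATTGG, 198 bases before its start and so outside the stretch printed for the others. Neither held the X pattern. A match is a description of letters and not of factor binding, which was not measured.

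Class II transcripts accumulated in the control cultures from day to day, and in the heme cultures they reached a lower maximum on day 5 and stood lower again on day 7. Summed over the 8 genes, the control level was 360 CPM on day 0, 3198 CPM on day 3, 5913 CPM on day 4, 12231 CPM on day 5 and 16766 CPM on day 7. The heme level was 449, 3127, 4154, 8532 and 5110 CPM on the same days. The libraries were close on day 3, before any addition, with a ratio of heme to control of 0.978 (0.971 to 0.985). After heme it was 0.702 (0.698 to 0.707) at day 4, 0.698 (0.695 to 0.701) at day 5 and 0.305 (0.303 to 0.306) at day 7. Between days 3 and 7 the level multiplied by 5.24 in the control library and by 1.63 in the heme library, and between days 5 and 7 by 1.37 and 0.599.

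The classical alpha and beta chains showed this course plainly. H2-Aa, the alpha chain of I-A, stood at 38.3, 459, 831, 1650 and 2487 CPM on days 0, 3, 4, 5 and 7 in the control library. In the heme library it stood at 57.4, 444, 592, 1181 and 682 CPM. On day 7 its ratio was 0.274 (0.271 to 0.277), and the heme level of day 7 lay below the control levels of days 4, 5 and 7 and below its own level of day 5.
H2-Ab1, the beta chain of I-A, stood at 58.0, 455, 767, 1433 and 1807 CPM in the control library and at 68.8, 449, 480, 933 and 540 CPM in the heme library. Its day 7 ratio was 0.299 (0.295 to 0.303). H2-Eb1 stood at 28.7, 299, 577, 1243 and 1652 CPM in the control library and at 37.6, 277, 437, 794 and 372 CPM in the heme library. This beta chain had the lowest day 7 ratio of these 3 chains, 0.225 (0.222 to 0.229). For all 3 chains the libraries differed little on day 3, and each day after heme was lower in the heme library.

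Cd74, the invariant chain, had the highest CPM of the 8 in every culture. Its gene lies on chromosome 18 (60803848 to 60812652, plus strand), away from the others. It stood at 131, 1647, 3272, 7102 and 9795 CPM in the control library and at 180, 1639, 2368, 5064 and 3141 CPM in the heme library, with a day 7 ratio of 0.321 (0.319 to 0.322). The summed level follows it closely for that reason.

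The H2-DM genes did not move as one. H2-DMa stood at 76.9, 198, 257, 445 and 552 CPM in the control library and at 78.9, 179, 132, 264 and 202 CPM in the heme library, a day 7 ratio of 0.366 (0.358 to 0.375). H2-DMb2 stood at 3.34, 36.5, 48.1, 107 and 191 CPM in the control library and at 2.56, 34.0, 27.0, 38.0 and 22.2 CPM in the heme library. It was 8.60-fold lower under heme on day 7 (ratio 0.116, 0.109 to 0.123), the largest difference of any member, and its heme level lay below that of day 3. Its near copy H2-DMb1 stood at 22.5, 79.2, 129, 189 and 199 CPM in the control library and at 20.9, 67.9, 81.7, 207 and 122 CPM in the heme library. H2-DMb1 had the smallest day 7 difference, a ratio of 0.613 (0.594 to 0.633). On day 5 it was the only member with more in the heme library, 1.10 (1.06 to 1.13), a direction that turned with the cells the study's quality limits keep (log2 ratio -0.84) and under scaling by trimmed mean of M-values (-0.091) or DESeq2 size factors (-0.11).

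Ciita had a course of its own. It stood at 1.46, 23.9, 32.5, 62.9 and 82.5 CPM in the control library and at 2.60, 37.8, 34.9, 50.9 and 28.5 CPM in the heme library. Before heme it was already higher in the heme library, by 1.58 (1.46 to 1.71) on day 3, and on day 4 the ratio was 1.07 (0.993 to 1.16), an interval that includes equality. On day 7 the ratio was 0.346 (0.326 to 0.367). On day 4 each of the other 7 genes was lower in the heme library. The log2 ratio of Ciita on that day, 0.10, was -0.30 with the study's quality limits and -0.17 under the trimmed mean scaling, so its direction depends on these choices. Set against its own level of day 3, Ciita on day 7 had multiplied by 0.755 in the heme library.

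**Figure D1:**
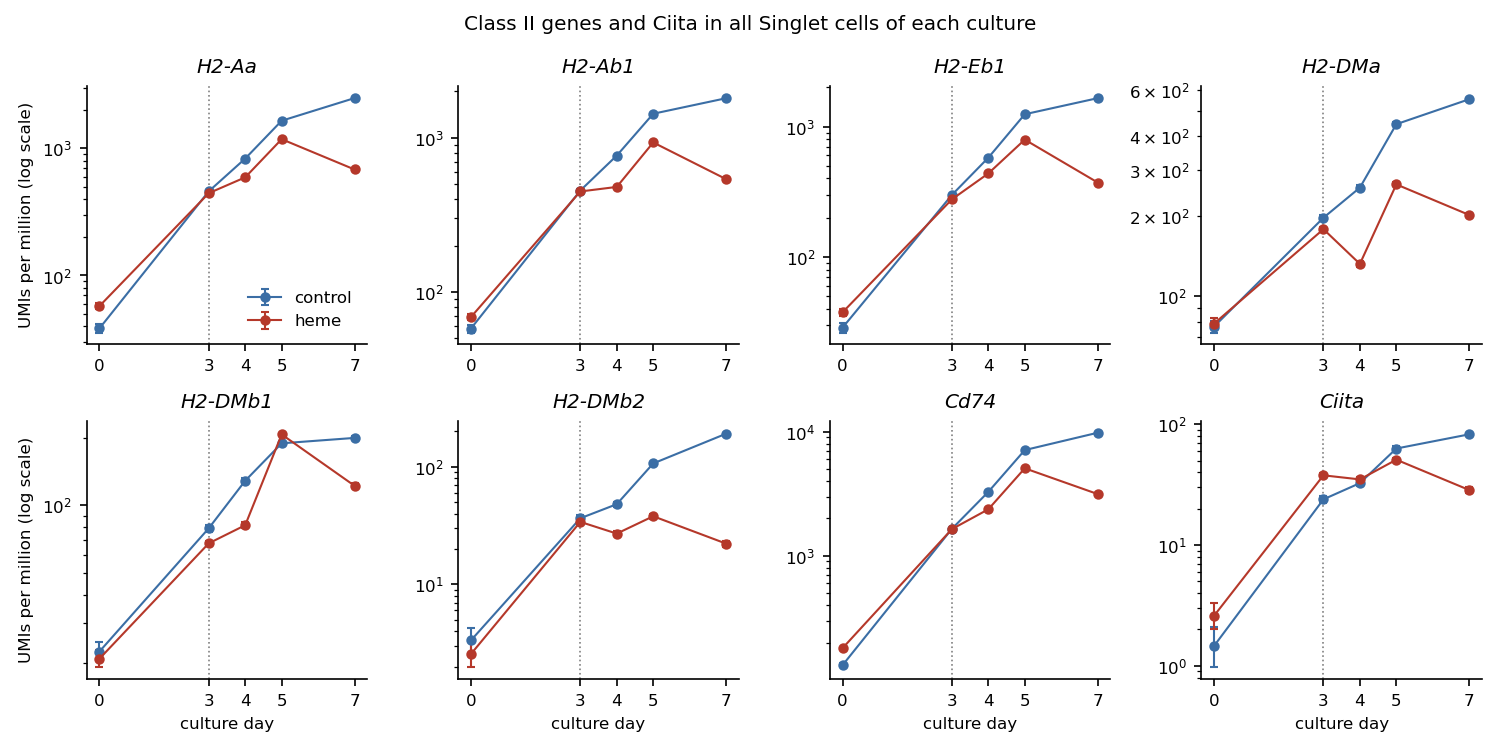
Level of each of the 8 genes (vertical axis, CPM, log scale) by culture day (horizontal axis) in the control and the heme library, 1 library each, with bars for the 95% counting interval. On day 7 the lines lie farthest apart for H2-DMb2 (191 and 22.2 CPM) and nearest for H2-DMb1 (199 and 122 CPM), and on day 3 they lie close together except for Ciita (23.9 and 37.8 CPM).

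Counted by a 2-fold limit, no member was lower under heme on days 0, 3 or 4, where 0.713%, 0.351% and 1.67% of all genes with 20 or more UMIs were. On day 5, 1 of 8 was lower by 2-fold or more (H2-DMb2), against 3.56% of all genes. On day 7, 7 of 8 were, against 7.32% of 13431 genes, and the exception was H2-DMb1. No member was higher by 2-fold or more on any day, where 16.9%, 6.68%, 11.1%, 10.5% and 15.2% of all genes were from day 0 to day 7. The median log2 ratio of the 8 genes was -1.69 on day 7, beside 0.30 for all genes. When the cells were restricted by the study's quality limits, the summed log2 ratio of day 7 was -2.30 instead of -1.71, that of day 5 was -1.08 instead of -0.52, and that of day 3, before heme, was -0.34 instead of -0.032.

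The cells that carry most class II were much scarcer in the heme culture on day 7. Ccr7-positive cells made up 20.5% (19.1 to 21.9) of the control cells, 646 cells, and 2.31% (1.79 to 2.92) of the heme cells, 67 cells. C1qb-positive cells made up 25.1% and 1.86%, or 793 and 54 cells. S100a8-high cells made up 3.26% and 13.7%, and the other cells 51.1% and 82.1%. The list of 6 macrophage genes summed to 640 CPM in the whole control and 674 CPM in the whole heme culture of day 7. In the other cells it summed to 369 and 720 CPM, so the smaller C1qb-positive share did not go with a lower sum of this list. A sum of transcripts is not a count of cells, and a share of macrophages was not counted. Because a UMI limit finds more cells in a deeper library, each cell was also thinned to 3000 UMIs, which left out 311 control and 193 heme cells. The shares were then 14.8% and 1.74% for Ccr7-positive and 13.1% and 0.296% for C1qb-positive cells. On day 5 the Ccr7-positive shares were 6.19% and 5.94%, whereas C1qb-positive cells already made up 7.71% and 2.81%. The C1qb-positive group was thus less frequent under heme on day 5, while the Ccr7-positive group was not.

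Of all class II UMIs of the day 7 control culture, 44.6% came from C1qb-positive, 25.8% from Ccr7-positive, 29.6% from other and 0.0604% from S100a8-high cells. In the heme culture 80.8% came from other cells, 11.8% from C1qb-positive, 6.56% from Ccr7-positive and 0.838% from S100a8-high cells. The bulk of class II transcripts under heme was therefore counted in cells with neither Ccr7 nor C1qb at 2 UMIs. These other cells held 87.1% of all UMIs of the heme culture and 45.3% in control. Their portion of class II thus lay below their portion of all UMIs in both libraries. Under heme the Ccr7-positive and C1qb-positive cells held 1.93% and 3.53% of all UMIs.

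Within the groups the levels differed less than in the whole culture. Ccr7-positive cells of day 7 held 21433 CPM of class II in the control library and 17344 CPM in the heme library, a ratio of 0.809 (0.797 to 0.822). C1qb-positive cells held 22298 and 17149 CPM, a ratio of 0.769 (0.760 to 0.778). The other cells held 10951 and 4741 CPM, a ratio of 0.433 (0.430 to 0.435), the largest difference of the 4 groups at the 2-UMI limit, though not at 1 UMI, where the log2 ratio was -1.10 in other and -1.26 in Ccr7-positive cells. S100a8-high cells held 1003 and 572 CPM, 0.570 (0.514 to 0.634), the lowest level of the 4 groups in both libraries. With the S100a8 limit at 5% the log2 ratio of this group was -0.060. In the other cells median depth was 10567 UMIs in the control and 18066 in the heme library.

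These group values depend in part on the limits. Where 1 UMI was enough, the Ccr7-positive group grew to 720 control and 171 heme cells and its log2 ratio went from -0.31 to -1.26. After thinning, the C1qb-positive group held 8 heme cells and its log2 ratio was -0.040. Heme cells with exactly 1 Ccr7 UMI, 93 cells outside the limit, held 5006 CPM of class II, and the 5 heme cells with exactly 2 held 10923 CPM. In the control library the 46 cells with 1 held 16372 CPM and the 33 with 2 held 24234 CPM. Around the C1qb limit the heme levels were 12605 CPM at 1 UMI (57 cells) and 15254 CPM at 2 (15 cells), and the control levels 17219 and 22364 CPM (199 and 96 cells).

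**Figure D2:**
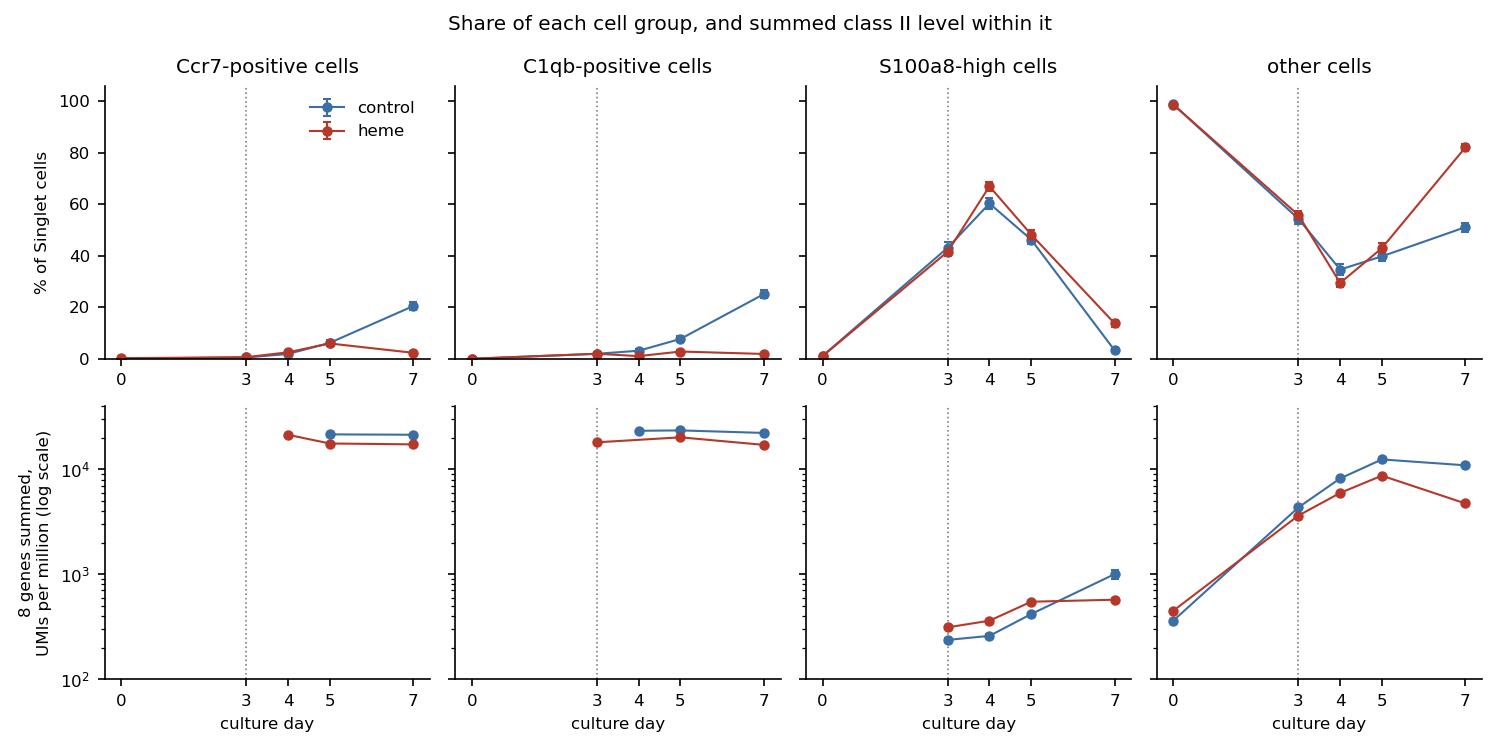
Share of cells (percent) and summed level of the 8 genes (CPM, log scale) for the 4 cell groups by culture day in the control and the heme library, with 95% counting intervals, levels drawn for groups of 50 or more cells and a dotted line at the day of addition. On day 7 the Ccr7-positive and C1qb-positive shares are 2.31% and 1.86% under heme against 20.5% and 25.1%, while their class II levels differ far less (17344 against 21433 CPM and 17149 against 22298 CPM).

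On day 5 the summed level was 21602 CPM in control and 17680 CPM in heme Ccr7-positive cells, 23578 and 20245 CPM in C1qb-positive cells, and 12457 and 8723 CPM in other cells. Among other cells the ratio went from 0.835 on day 3, before heme, to 0.728, 0.700 and 0.433 on days 4, 5 and 7. S100a8-high cells went against this before day 7: their level was 236, 258 and 417 CPM in the control library and 312, 361 and 547 CPM in the heme library on days 3, 4 and 5.

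Single genes within the groups of day 7 parted into those that followed the sum and those that did not. In Ccr7-positive cells, where 5.95% of all genes were lower and 23.5% higher by 2-fold or more, 0 of 8 members were either. The ratios were 0.652 for H2-Aa, 0.752 for H2-Ab1, 0.707 for H2-Eb1 and 0.879 for Cd74. H2-DMa was at 0.904 (0.801 to 1.02), an interval that includes equality, as did that of H2-DMb1, 1.20 (0.941 to 1.51). Ciita was higher under heme in these cells, at 159 CPM against 98.3 CPM, a ratio of 1.62 (1.37 to 1.92). This rests on 67 heme cells, and with 1 UMI of Ccr7 as the limit the log2 ratio of Ciita was -0.37. Scaling by trimmed mean of M-values gave 0.17 for Ciita and -0.26 for H2-DMb1 in this group.

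In C1qb-positive cells 1 of 8 members was lower by 2-fold or more, against 8.18% of all genes, and 0 were higher, against 11.4%. That member was H2-DMb2, at 262 CPM in control and 63.5 CPM in heme cells, a ratio of 0.242 (0.200 to 0.290). H2-Aa, H2-Ab1, H2-Eb1 and Cd74 had ratios of 0.827, 0.794, 0.716 and 0.774, and H2-DMa 0.587. H2-DMb1 was at 292 and 303 CPM, 1.04 (0.948 to 1.13), so the near copies differed within this group too. Ciita was at 120 and 96.5 CPM, 0.804 (0.688 to 0.936), and its log2 ratio was 0.032 in the 20 heme cells that the study's limits keep.

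In the other cells 6 of 8 members were lower by 2-fold or more, against 5.11% of all genes, and 0 were higher, against 13.0%. The exceptions were H2-DMb1 (0.642) and Ciita (0.509). H2-Aa stood at 1384 and 614 CPM, Cd74 at 6517 and 2934 CPM, and H2-Eb1 at 892 and 320 CPM. H2-DMb2 was again lowest, with 128 and 19.1 CPM, a ratio of 0.149 (0.138 to 0.161). Ciita stood at 49.4 and 25.2 CPM, so its ratio lay above equality in the Ccr7-positive group and below it in both the C1qb-positive and the other group. The difference between these ratios was not tested.

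**Figure D3:**
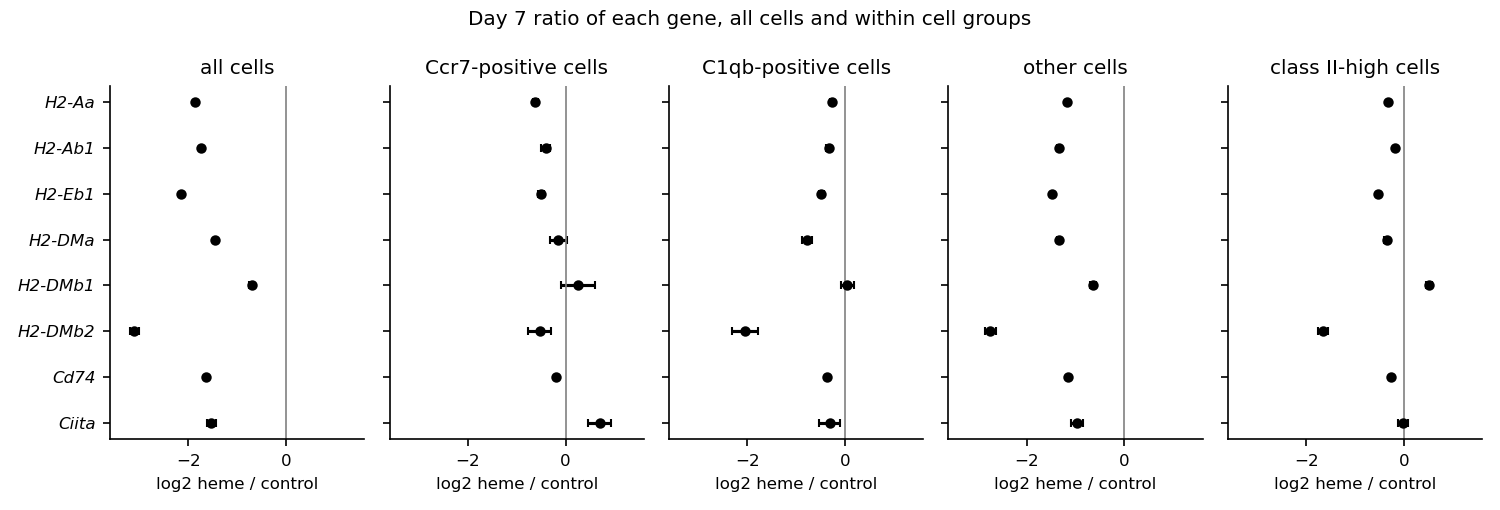
Log2 ratio of heme to control on day 7 (horizontal axis) for each of the 8 genes (rows) in all cells, in 3 cell groups and in class II-high cells (a panel each), with 95% counting intervals. Class II-high cells were chosen by H2-Aa, H2-Ab1, H2-Eb1 and Cd74 themselves, which bounds the levels of these genes there. Points for all cells lie left of those for Ccr7-positive and C1qb-positive cells, H2-DMb2 lies farthest left in all cells (ratio 0.116), and Ciita in Ccr7-positive cells lies right of 0 (ratio 1.62).

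Counted per cell, a class II-high cell was taken as one with 1% or more of its UMIs from H2-Aa, H2-Ab1, H2-Eb1 and Cd74. This is a range of a continuous measure, and 250 control and 126 heme cells of day 7 lay between 0.8% and 1.25%. Class II-high cells made up 8.94%, 13.5% and 24.5% of control cells on days 3, 4 and 5, and 8.29%, 7.60% and 16.8% of heme cells. On day 7 they made up 49.0% (47.2 to 50.7) and 9.34% (8.31 to 10.5), a difference of -39.6 percentage points (-41.7 to -37.5). The median cell of day 7 took 0.939% of its UMIs from these genes under control conditions and 0.0895% under heme.

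**Figure D4:**
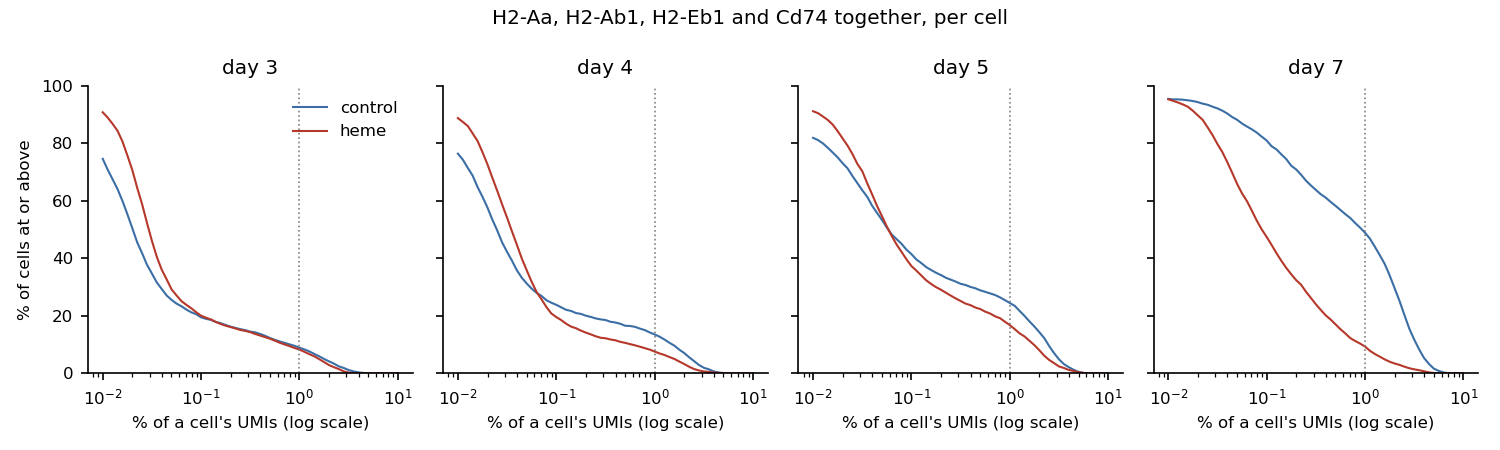
Share of cells (vertical axis, percent) with at least the given percentage of their UMIs from H2-Aa, H2-Ab1, H2-Eb1 and Cd74 (horizontal axis, log scale), by library and culture day. At 1% the day 7 curves stand at 49.0% in the control and 9.34% in the heme library, whereas those of day 3 stand at 8.94% and 8.29%.

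The class II-high cells themselves differed in kind between the libraries. Of the 1545 control cells, 37.3% were Ccr7-positive, 36.2% C1qb-positive and 26.5% other. Of the 271 heme cells, 18.5% were Ccr7-positive, 9.96% C1qb-positive and 71.6% other. Within Ccr7-positive cells, 89.3% of control and 74.6% of heme cells were class II-high, and within other cells 25.4% and 8.15%. Within C1qb-positive cells it was 70.5% of control cells and 27 of the 54 heme cells. No S100a8-high cell was, with upper limits of 3.52% and 0.923%.

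Summed over the class II-high cells of day 7, the level was 26400 CPM without and 21550 CPM with heme, a ratio of 0.816 (0.812 to 0.821). H2-Aa, H2-Ab1, H2-Eb1 and Cd74 both chose these cells and make up most of this sum. The 1% limit therefore bounds it in both libraries, and nothing is read from its ratio. Ciita did not differ by more than counting error in these cells, with 135 and 134 CPM (0.993, 0.927 to 1.06). H2-DMb1 was higher under heme, 383 against 267 CPM (1.43, 1.37 to 1.49), while H2-DMb2 was lower, 97.8 against 308 CPM (0.318, 0.295 to 0.342). The remaining, class II-low cells held 3776 and 2125 CPM.

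Ciita was detected, with 1 UMI or more, in 56.8% of control and 70.1% of heme Ccr7-positive cells on day 7. The shares were 61.0% and 53.7% in C1qb-positive cells and 21.8% and 17.2% in other cells. In S100a8-high cells, which carry little class II and had a lower depth, the shares were 0.971% and 1.76%, from 1 and 7 cells. The source of these UMIs was not tested. Among class II-high cells, 68.6% of control and 81.5% of heme cells held Ciita at median depths of 13235 and 25359 UMIs. Thinned to 3000 UMIs the shares were 30.1% and 33.1%. With the cell groups also drawn from thinned cells, the shares were 22.8% and 36.2% in Ccr7-positive cells. They were 13.9% and 5.19% in other cells, a wider gap than without thinning. In C1qb-positive cells they were 31.7% and 37.5%, the latter from 3 of 8 heme cells, so the direction turned there.

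How far the scarcity of the groups and their lower levels each entered the day 7 difference was computed by exchange. With the control levels and the heme shares of the 4 groups, the summed level would be 10809 CPM, and with the heme levels and the control shares 11398 CPM, between the measured 16766 and 5110 CPM. The part that went with the shares depended on the order, -0.63 of the log2 difference of -1.71 at control levels and -1.16 at heme levels. Averaged over both orders, 52.2% of the log2 difference went with the shares and the remainder with levels inside the groups. In the same orders it was -0.73 and -1.41 of -1.53 for Ciita. It was -0.60 and -1.47 of -3.10 for H2-DMb2 and -0.18 and -0.57 of -1.45 for H2-DMa. The averaged portion with the shares was 69.9% for Ciita, 33.3% for H2-DMb2 and 25.8% for H2-DMa. For the sum it was 32.7% on day 4 and 23.9% on day 5. These portions depend on the 4 groups chosen, and the other group holds several kinds of cell.

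The proportions among the 8 genes also separated the groups. In control cells of day 7, H2-Ab1 per H2-Aa was 0.372 in Ccr7-positive, 0.894 in C1qb-positive and 0.918 in other cells. The heme values were 0.429, 0.857 and 0.815, so the Ccr7-positive cells stood apart in both libraries. H2-DMa per H2-Aa was 0.0779 and 0.108 in control and heme Ccr7-positive cells and 0.246 and 0.174 in C1qb-positive cells. H2-DMb2 per H2-DMb1 was 3.43 and 1.99 in Ccr7-positive cells, 0.897 and 0.210 in C1qb-positive cells, and 0.657 and 0.153 in other cells. In whole control cultures that ratio was 0.461, 0.373, 0.566 and 0.958 on days 3, 4, 5 and 7, and in heme cultures 0.50, 0.331, 0.184 and 0.182. In the other cells of day 4 the proportion was already lower under heme, 0.318 (0.296 to 0.342) in control and 0.234 (0.215 to 0.255) in heme cells.

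The other cells were further described by 2 or more UMIs of a single gene, in subsets that can overlap. Mgl2, a lectin of monocyte-derived dendritic cells and some macrophages, marked 800 control and 460 heme cells of day 7, with summed class II levels of 14118 and 8463 CPM (0.599). Vcan, a proteoglycan of monocytes, marked 119 and 1248 cells, at 6800 and 4343 CPM (0.639). Marco, a scavenger receptor of macrophages, marked 12 and 1157 cells, and its heme cells held 3626 CPM. Before heme, Marco marked 15 cells of day 0 and 42 of day 3 in the heme library, against 0 and 0 in the control library. The source of these Marco UMIs was not tested. Arg1, an arginine-degrading enzyme, marked 255 control but 13 heme cells. Class II was thus lower under heme within the Mgl2 and the Vcan subset also, without thinning to equal depth. On day 3, before heme, Mgl2 cells held 16.9% of UMIs and 52.3% of class II UMIs in the control library. In the heme library they held 21.5% and 52.7%, so their class II level was already lower there. Vcan cells of day 3 held 35.9% and 38.3% in the control and 41.3% and 43.6% in the heme library. The list of 7 conventional dendritic cell genes in the other cells summed to 1046 CPM in control and 223 CPM in heme, and its part in the class II difference was not tested.

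The further genes of the pathway were counted list by list on day 7, and all lists were drawn up with earlier results of these data known. Of the 7 factors that bind the X and Y boxes, none was lower or higher by 2-fold or more, beside 7.32% lower and 15.2% higher among all genes, and nothing is read from this count. Nfya, a subunit of the Y box factor, was at 0.797 and Creb1, which binds next to the X box, at 1.39. Rfx5 and Rfxank, subunits of the X box factor, were at 1.22 and 0.916. Before heme, on day 3, Nfya, Creb1, Rfx5 and Rfxank were at 1.40, 1.73, 1.51 and 0.999, so the ratios of Creb1 and Rfx5 were higher before the addition than on day 7. Of 10 genes that regulate Ciita, 3 were lower by 2-fold or more and 0 higher, against the same 7.32% and 15.2%. Irf4, a transcription factor of dendritic cells, stood at 90.4 CPM in control and 25.8 CPM in heme (log2 ratio -1.81), and Irf8, needed for dendritic cell development, at 160 and 60.3 CPM (-1.41). The third was Jak2, a kinase of GM-CSF and interferon-gamma signalling (-1.30). Its partner kinase Jak1 (0.70) and the receptor chain Ifngr2 (0.40) were higher, but both were so before heme, at 0.55 and 0.24 on day 3. On that day Irf4, Irf8 and Jak2 were also higher in the heme library, at 0.27, 0.36 and 0.74.

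Within the Ccr7-positive cells these regulators parted: Irf8 was at 551 and 126 CPM, while Irf4 was at 104 and 157 CPM. Irf4 thus had the same direction as Ciita in this group, and Irf8 the opposite one. In the other cells Irf8 was at 61.1 and 62.7 CPM, so its difference in the whole culture was not seen there, and Irf4 was at 76.6 and 23.0 CPM.

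Of the 9 genes of peptide loading and invariant chain processing, 8 were in the matrices, and 2 were lower and 0 higher by 2-fold or more (7.32% and 15.2% of all genes). Those lower were H2-Oa and H2-Ob, which encode H2-O, an inhibitor of H2-DM, at log2 ratios of -2.14 and -2.97. The lysosomal proteases Ctsd (0.68) and Ctsb (0.73) were higher in the heme library, as they were before heme on day 0 (0.67 and 0.58) and day 3 (0.48 and 0.41). Of 6 genes of surface turnover and costimulation, 3 were lower and 1 higher by 2-fold or more, where 15.2% of all genes were higher and 7.32% lower. Cd83, which keeps class II at the surface, was at -2.96, Cd40 at -2.24 and Cd86 at -2.07, both costimulatory receptors. March1, a ubiquitin ligase that removes class II from the surface, was higher, at 40.6 CPM in control and 102 CPM in heme (1.33), and the related March8 was at 0.82. March1 had been higher in the heme library before heme as well, at log2 ratios of 1.25 on day 0 and 0.77 on day 3, and March8 at 0.57 and 0.59.

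March1 and Cd83 parted within the Ccr7-positive cells. Cd83 stood at 273 and 291 CPM there (ratio 1.07, 0.945 to 1.20) and Cd86 at 183 and 182 CPM, whereas March1 stood at 3.43 and 32.1 CPM, a ratio of 9.36 (5.53 to 15.9) from 29 and 34 UMIs. The difference of Cd83 and Cd86 in the whole culture was thus not seen in these cells. In the C1qb-positive and the other cells March1 was also higher under heme, at ratios of 2.59 and 2.07. The neutrophil and macrophage lists were higher too in heme than in control Ccr7-positive cells, as given above. Their part in the March1 ratio of that group was not tested. Of the remaining class II genes, H2-Eb2, whose promoter is printed above, had 252 control and 29 heme UMIs on day 7 (log2 ratio -3.51). The pseudogene H2-Ea-ps had 0 and 1 UMI, where a count of 0 allows up to 3.

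**Figure D5:**
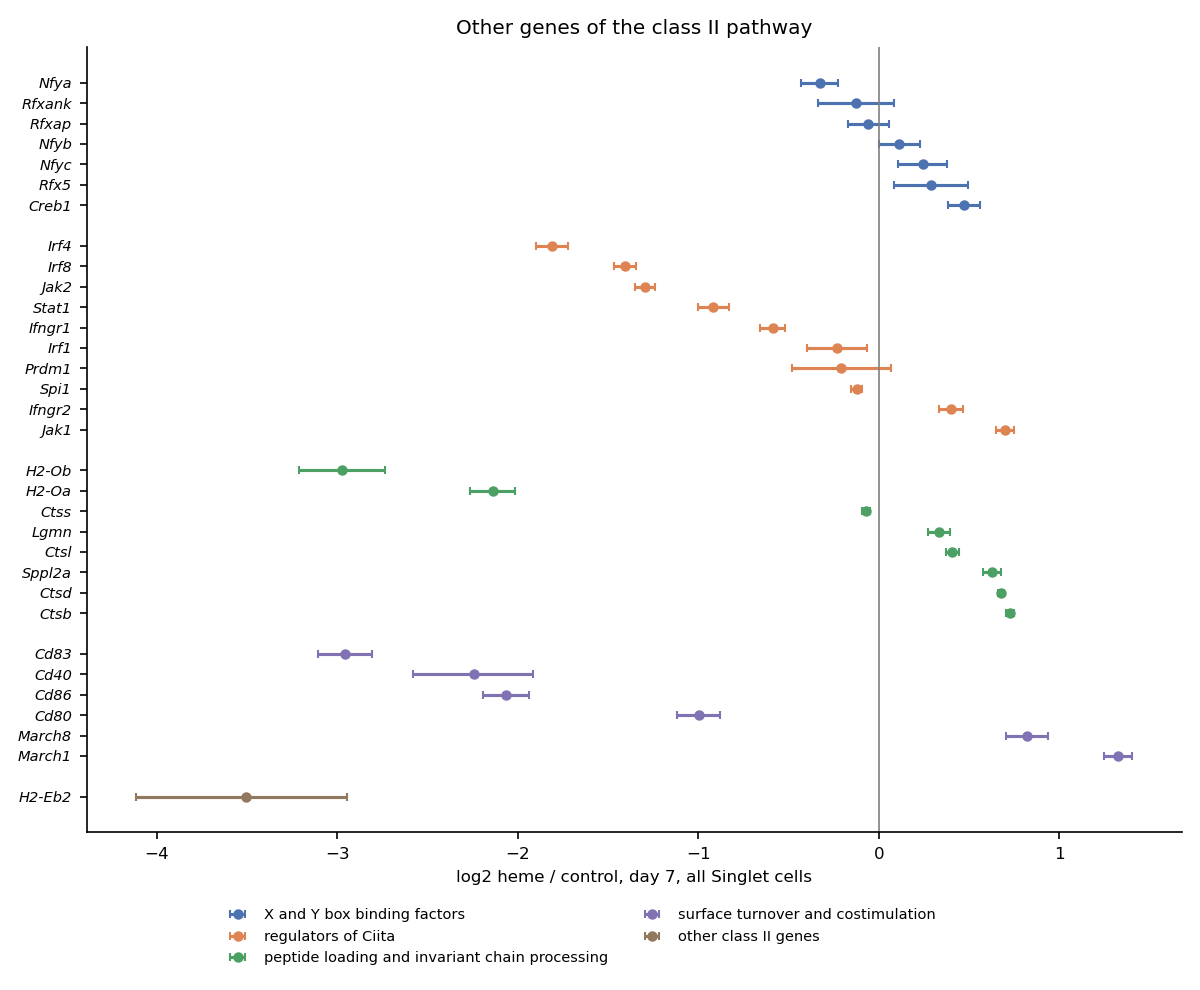
Log2 ratio of heme to control on day 7 in whole cultures (horizontal axis) for the genes of each pathway list, with 95% counting intervals. The X and Y box factors lie within 2-fold of 0, while H2-Ob, H2-Oa, Cd83, Cd40 and Cd86 lie 2-fold or more to the left and March1 (1.33) to the right.

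The genes whose course was most like that of the members were ranked by the correlation of log2(CPM + 10) with the mean of the 8 genes. Over the 10 cultures and 7764 genes, Jaml, an adhesion molecule of leukocytes, was closest (r = 0.994), and Rras2, Bcl2a1d, Jup, Cd52, Socs2, Mcub, Dok2, S100a11 and Cisd3 followed, down to 0.983. Among the members themselves r ranged from 0.999 for H2-Ab1 to 0.945 for H2-DMb2, at rank 120. Each member is part of the mean it was compared with, which raises its r and rank, so these do not compare with those of other genes. Over 29 cell groups by day and library, Plekho1 (0.978), Cldnd1, Tnip3, Gpr85, Fkbp1a, Jaml (0.971), Kcnk13, Ccl17, P2rx5 and Tmem173 (0.955) were closest, so Jaml was named by both rankings. The points share 2 libraries and successive culture days, and these correlations are descriptions.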

How the data were processed

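Both conditions of GM-CSF bone marrow culture were measured by droplet-based 3′ single-cell RNA sequencing, 1 library each. Raw UMI counts per barcode, for genes and hashtags, were deposited as the authors obtained them from Cell Ranger. Submitters' processing notes name version 4.0.0, GRCm38.p6, Seurat 3.2.3, Scanpy 1.6.0 and R 4.4, while the matrix headers name Cell Ranger 5.0.0. The annotation used for counting is not given in the sources used here. Hashtag calls of the authors (HTODemux) were used as deposited, and barcodes called as doublet (1259 control, 1996 heme) or negative (652, 1218) were left out. Their frequency implies 331 (2.75%) and 521 (3.68%) doublets within 1 hashtag, which remain.

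The 8 genes, the cell groups and the pathway and marker lists were chosen with earlier results of these data known. Every cell with 1 hashtag was used. UMIs were summed per culture or cell group (minimum 50 cells for a ratio that the text compares) and divided by the total of gene UMIs. Ratios carry exact intervals for 2 Poisson counts and shares exact (Clopper-Pearson) intervals, at the 95% level. A count of 0 was read as allowing 3. Genes with 20 or more UMIs in both libraries together entered the background counts. With 3′ counting a transcript is counted once whatever its length, so no length scaling was applied. CPM of different genes compare transcripts captured and may differ in how well each 3′ end is caught. The text names all 8 genes, the 2 highest and 2 lowest day 7 ratios of each pathway list, and the 10 genes most like the members (at 20 CPM or more in a culture); Jak2, Cd86 and the expanded within-group values of Irf4, Irf8, Cd83 and March1 were chosen after their values were seen. Alternatives were the study's limits on cells (500 to 5000 genes, under 15% mitochondrial and under 30% ribosomal protein UMIs), edgeR (4.0.16) trimmed mean factors, DESeq2 (1.42.0) size factors, thinning to 3000 UMIs and other group limits. Python 3.11.15, numpy 2.4.6, scipy 1.17.1, pandas 2.3.3, matplotlib 3.10.9 and R 4.3.3 were used, and the interval code was tested on simulated data. Coordinates follow GENCODE M21, where 26013 of 26124 gene identifiers were found. Sequences are RefSeq promoters, and Ifi30 and H2-Ea were not analysed here.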

Additional observations from a re-analysis of the deposited data

Results flagged for a closer look

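H2-DMb1, the beta chain of H2-DM, had heme to control ratios in whole cultures of 0.635 on day 4, 1.10 on day 5 and 0.613 on day 7, so day 5 lay on the other side of equality from the days before and after. The difference between days was not tested, and the day 5 direction turned in 3 alternatives given below.

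Ciita, the class II co-activator, had day 7 ratios of 1.62 in Ccr7-positive cells, 0.804 in C1qb-positive cells and 0.509 in other cells, so the cell groups lay on opposite sides of equality. The difference between the groups was not tested, and the Ccr7-positive value rests on 67 heme cells of 1 library.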

How the results depend on the processing

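Values are log2 ratios of heme to control for the 8 genes summed. All summed ratios and shares kept their direction under every alternative run, and of 105 alternatives 24 stayed within the counting error. Among 459 alternatives for single genes 9 reversed a value whose interval excluded equality. Values whose interval included it, such as Ciita on day 4 and H2-DMb1 in Ccr7-positive and C1qb-positive cells, could also change sign and are not among the 9. For days 3, 4, 5 and 7 the whole-culture values (-0.032, -0.51, -0.52 and -1.71) were -0.34, -0.94, -1.08 and -2.30 with the study's limits, -0.057, -0.55, -0.54 and -1.74 without shared barcodes, -0.37, -0.79, -0.74 and -1.99 with trimmed mean factors, and -0.38, -0.84, -0.76 and -1.98 with DESeq2 size factors. They were -0.061, -0.56, -0.58 and -1.82 without ribosomal protein and mitochondrial genes in the total, -0.15, -0.71, -0.63 and -2.05 after thinning, -0.060, -0.57, -0.56 and -1.82 without Cd74, and -0.076, -0.57, -0.55 and -1.69 as the median of the 8 genes. Divided by the day 3 ratio, days 4, 5 and 7 gave -0.48, -0.49 and -1.68, and day 5 gave -0.53 with only 500 genes and under 15% mitochondrial UMIs required.

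In Ccr7-positive cells of day 7 (-0.31), values were -0.34 (study's limits), -0.83 (trimmed mean), -0.77 (DESeq2), -0.34 (reduced total), -0.49 (without Cd74), -1.26 (1 UMI), -0.22 (3 UMIs), -0.35 (cells of several groups left out) and -0.35 (cells over 5000 genes left out, chosen after seeing the data). In C1qb-positive cells (-0.38) they were -0.71 (study's limits), -0.35 (without shared barcodes), -0.57 (trimmed mean), -0.49 (DESeq2), -0.46 (reduced total), -0.040 (thinned), -0.49 (1 UMI), -0.32 (3 UMIs) and -0.71 (over 5000 genes left out). In S100a8-high cells (-0.81) they were -0.39 (study's limits), -1.11 (trimmed mean), -1.08 (DESeq2), -1.06 (thinned), -0.66 (without Cd74), -1.18 (S100a8 at 1%), -0.060 (at 5%) and -0.42 (over 5000 genes left out). In other cells (-1.21) they were -1.68 (study's limits), -1.23 (without shared barcodes), -1.41 (trimmed mean), -1.41 (DESeq2), -1.28 (reduced total), -1.74 (thinned), -1.30 (without Cd74), -1.10 (1 UMI), -1.29 (3 UMIs), -1.22 (S100a8 at 5%) and -1.69 (over 5000 genes left out).

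The difference in class II-high share was -43.4 points with the study's limits, -42.0 with 500 genes and the mitochondrial limit, -44.0 after thinning and -26.2 at a limit of 2% of UMIs, beside -39.6. Control levels at heme shares gave -0.69 at 1 UMI and -0.77 with the study's limits, beside -0.63, and heme levels at control shares -0.80 and -0.82, beside -0.56.

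Reversed were H2-DMb1 on day 5 (-0.84 with the study's limits, -0.091 with trimmed mean and -0.11 with DESeq2 factors) and Ciita in Ccr7-positive cells at 1 UMI (-0.37). In C1qb-positive cells, thinning, which left 8 heme cells, gave H2-Aa 0.22, H2-Ab1 0.010, H2-DMa 0.0025 and Ciita 0.73, and the study's limits gave Ciita 0.032. The cause was not tested. No paired analysis was possible because each condition is 1 library. Leaving out a replicate was not possible for the same reason. The intervals cover counting error only, so differences between libraries on days 0 and 3 are the only measure of variation between libraries here.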

Other observations

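Other cells with 2 or more UMIs of Mpo, the myeloperoxidase of neutrophil progenitors, are called Mpo-positive. Their class II levels were higher in the heme library on days 3, 4 and 5, when the whole cultures were lower, but not on day 7. Their summed level was 354 CPM in 534 control and 394 CPM in 739 heme cells on day 0, and 632 CPM in 300 control and 1728 CPM in 680 heme cells on day 3, before heme. On day 4 it was 781 CPM in 89 control and 5562 CPM in 139 heme cells, a ratio of 7.12 (6.78 to 7.49). On day 5 the 204 heme cells held 10247 CPM and the 36 control cells 3043 CPM, and on day 7 the 253 heme cells held 6203 CPM. These cells overlap with the other subsets, and no cause was tested. A list of 6 progenitor genes with Mpo summed to 5516, 1992 and 499 CPM in control other cells on days 3, 4 and 5. In heme other cells it summed to 4331, 474 and 223 CPM. On day 4 the subset was 3.85% of control cells with 6.68% of UMIs, and 4.42% of heme cells with 10.6%. Cells of the subset were not thinned to equal depth, on which a 2-UMI limit depends.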
